A study of Mus musculus with 20 samples.

Results

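Aspg, Asrgl1 and Asns are the genes that break down and make the amino acid asparagine, and their transcripts were followed in the livers of 20 mice. The genes were chosen by name with earlier results of these arrays in view, among them the separation of 2 diets by the level of Aspg. Every probe set (the group of array probes that reads 1 transcript) that the platform's gene table assigns to exactly 1 symbol, that of a member, was used. This gave 7 probe sets for 3 genes, 1 for Aspg, 4 for Asrgl1 and 2 for Asns, of 34945 probe sets for 18193 genes on the array.

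The mice were male C57BL/6J, arrived at 3 weeks of age, ate a low-fat diet (10 kcal% fat) for 1 week and were killed at 8 weeks of age after a 16 h fast. The HFD group of 10 mice ate a diet with 45 kcal% fat for 4 weeks, and the MSXH group of 10 mice had MSXH, an extract of maple syrup whose composition the labels do not give, mixed into that diet at 0.02%. Liver RNA of each mouse was read on 1 Affymetrix 3′ array, so that the comparison asks how this extract on top of a high-fat diet goes with liver transcript levels. The group that stayed on the low-fat diet and that given 0.05% of the extract were not analysed here.

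L-asparaginases hydrolyse asparagine to aspartate and ammonia. Aspg encodes such an enzyme, and Asrgl1 encodes a small hydrolase of another family that cuts both asparagine and isoaspartyl dipeptides and becomes active by cleaving itself. Asns encodes asparagine synthetase, which runs the opposite way: it moves the amide nitrogen of glutamine onto aspartate at the cost of ATP. Asns is a classic target of ATF4, the transcription factor of the amino acid response, in which uncharged tRNA activates the kinase GCN2 and translation of ATF4 goes up. In the Asns promoter this response runs through a pair of nutrient-sensing response elements, NSRE-1 and NSRE-2.

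The 3 promoters are shown because the elements through which Asns senses amino acids can be read in one of them. Each runs from 120 bases before the transcription start to 10 bases after it, 5′ to 3′ on the gene's strand, from RefSeq (GRCm38.p6), with capitals marking NSRE-1 (TGATGAAAC) and NSRE-2 (GTTACA) on either strand.
Asns, chr6:7693200-7693329, minus strand: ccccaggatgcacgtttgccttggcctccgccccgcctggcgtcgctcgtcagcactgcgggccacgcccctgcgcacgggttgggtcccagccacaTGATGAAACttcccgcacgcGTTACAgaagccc
Aspg, chr12:112106563-112106692, plus strand: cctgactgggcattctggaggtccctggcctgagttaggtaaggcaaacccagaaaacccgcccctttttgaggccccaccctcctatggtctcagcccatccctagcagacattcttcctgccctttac
Asrgl1, chr19:9135557-9135686, minus strand: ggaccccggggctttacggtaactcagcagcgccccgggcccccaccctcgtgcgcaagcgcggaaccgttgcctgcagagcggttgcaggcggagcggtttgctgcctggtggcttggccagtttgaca

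The NSRE-1 letters began 23 bases upstream of the Asns start, and the NSRE-2 letters lay across the start itself. Over the tabulated window of 250 bases before to 50 after the start, NSRE-1 was found in 81 of 32851 mouse promoters (0.247%) and NSRE-2 in 2709 (8.25%). The looser letters TGATGNAAN are a form of the element that ATF4 binds with a C/EBP partner, and one that overlaps NSRE-1. They stood in 1215 of 27025 genes (4.50%) and in 11 of 33 genes (33.3%) of a gene list for the ATF4 response. NSRE-1 stood in 0 of those 33. None of the 3 motifs stood in the Aspg or the Asrgl1 window. A match is only a run of letters, and no binding was measured.

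The deposited values lie on a log scale whose base is not stated, from 5.17 to 15.01, and vary very little between arrays: 44 of the 45101 probe sets had an SD above 0.1. Levels of the members are therefore given as deviations from the probe set's own mean over the 20 mice, in thousandths or millionths of a log unit. They are not read as folds of RNA, and levels of different probe sets are not set against each other. In whole liver, fewer cells of a type and less RNA per cell cannot be told apart.

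The arrays carried liver RNA, with all 10 of 10 hepatocyte markers above the median of every array. MSXH 4 and MSXH 6 stood apart by skeletal muscle transcripts: Myh1, a muscle myosin, was at 12.5 and 10.8 there against 5.71 to 6.23 on the other 18 arrays, and the muscle actin Acta1 at 12.1 and 10.5 against 6.11 to 6.49. These arrays were also highest for the adipocyte list (1.27 and 1.58 SD units against -0.866 to 0.499) and the cholangiocyte list (1.21 and 1.02 against -0.614 to 0.843), and lowest for the macrophage and Kupffer cell list (-1.38 and -1.22 against -1.01 to 1.68). The standardized differences of the members are therefore also given without these 2 mice. No pair of arrays shared more than 0.0200% of its probe set values, so none was a repeat deposit. Over all genes, limma at an adjusted p under 0.05 called 0 of 18193 (0.0%); at an unadjusted p under 0.05, 6.58% were higher and 4.31% lower in MSXH, and the smallest adjusted p was 0.0728.

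**Figure D1:**
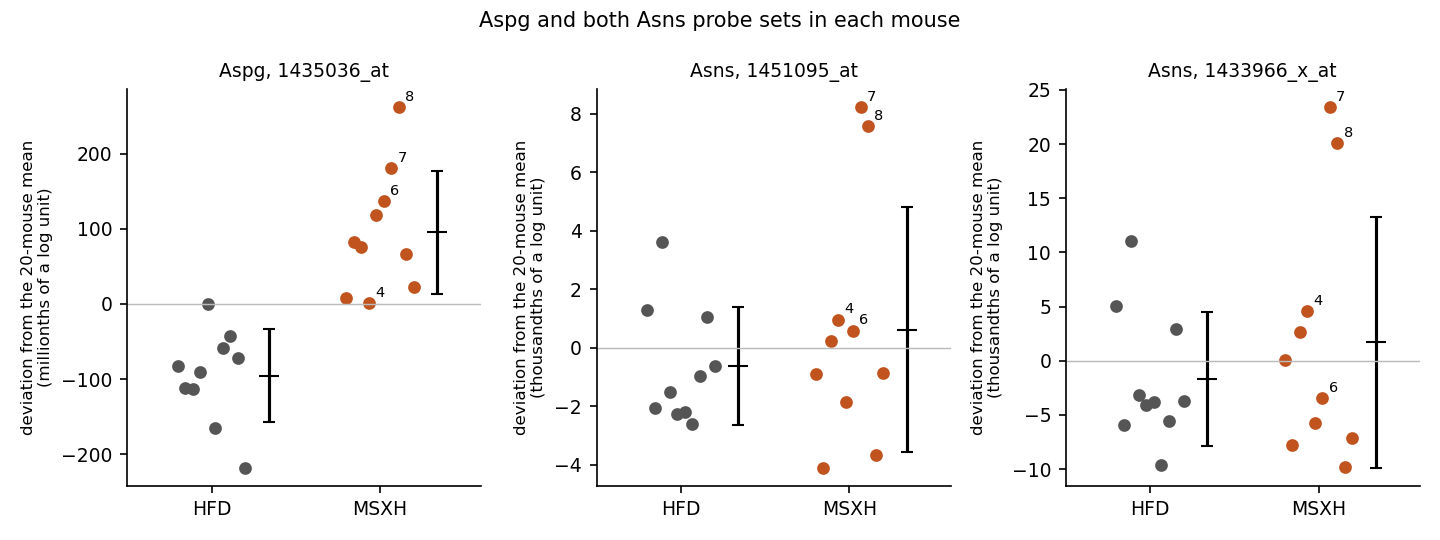
Deviation of each mouse from the 20-mouse mean (vertical axis, millionths or thousandths of a log unit) for Aspg and both Asns probe sets in 10 HFD and 10 MSXH mice, 1 point a mouse, with bars for the group mean and SD and numbers beside MSXH 4, 6, 7 and 8. Aspg separates the groups, the lowest MSXH mouse lying 0.057 millionths above the highest HFD mouse, while the groups overlap for Asns, where MSXH 7 and MSXH 8 are highest in both probe sets.

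Aspg, the asparaginase, was higher in MSXH than in HFD livers on the deposited scale, with no overlap between groups. Its only probe set, 1435036_at (gene ID 104816, chromosome 12), had a mean level of 9.65. In the HFD mice its deviation ran from a lowest value of -218 through a median of -86.9 to a highest of 0.571 millionths, and in the MSXH mice from 0.628 through 79.5 to 262 millionths. HFD 10, at -218, and HFD 6, at -165, were lowest, and MSXH 8, at 262, and MSXH 7, at 180, were highest. The HFD mean was -95.4 ± 61.9 (SD, n = 10) and the MSXH mean 95.4 ± 81.9 (SD, n = 10), a difference of 191 millionths.

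That difference is 2.63 times the pooled SD within groups (the standardized difference used from here on), and the MSXH mouse was higher in 100 of the 100 pairs of a mouse from each group. It is given with no test, since Aspg was chosen from it. Separation of this kind, with every MSXH mouse above every HFD mouse, occurred in 3 of 18193 genes (0.0165%), Aspg among them. By the size of the standardized difference Aspg ranked 4 of 18193 genes, but by its SD within groups it ranked 2638. The margin between the groups was thin: MSXH 4, the lowest of its group, stood 0.057 millionths above HFD 5, the highest HFD mouse. MSXH 4 is one of the arrays with muscle transcripts, and MSXH 6, the other, stood at 137 millionths, so without them the standardized difference was 2.73.

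The sign of the Aspg difference was not the same under every array scaling. With quantile normalization, which gives all arrays the same set of values, the standardized difference was -0.475, and with each array centred on its median it was -0.164. With MSXH 4 and 6 left out, the same scalings gave 0.0755 and 1.22. Median centring moved MSXH 4 by -1694 and MSXH 6 by -1304 millionths and the other 18 arrays by -152 to 320 millionths, where the Aspg difference between groups was 191. Such a shift is the same for every gene of an array, and over all mice it lowers MSXH against HFD. The sign after median centring thus restates the size of the Aspg difference against that shift and is no test of it. Before scaling, the median deviation of the probe sets with 1 symbol from their own means lay between -1.31 and 0.486 millionths on every array. Centring on that quantity thus moves no value by more than 1.31 millionths and is no test of the Aspg difference.

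The quantile result has a grain coarser than the Aspg difference. Among the 34945 probe sets with 1 symbol on its array, Aspg took ranks from 32775 to 32781 only. Its 20 distinct values became 7 after quantile normalization, which ran on all 45101 probe sets. Neighbouring normalized values of the probe sets with 1 symbol lie a median of 461 millionths apart at that place, more than the whole group difference. For Asrgl1 the step was 131 millionths and 8 distinct values were left, while for Asns, with ranks from 14596 to 14805, the step was 47.9 millionths and 19 distinct values were left.

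**Figure D2:**
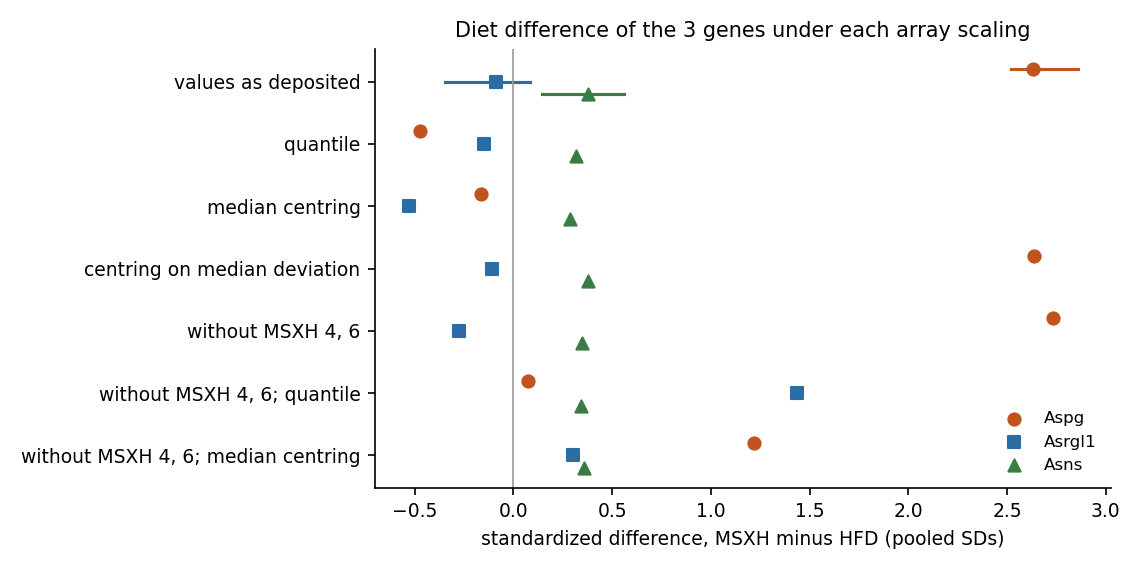
Standardized difference (horizontal axis, MSXH minus HFD in pooled SDs within groups) of the highest-level probe set of each member under each array scaling, with all 20 mice and without MSXH 4 and 6; bars on the deposited values span the results with each array left out. Aspg runs from -0.475 with quantile normalization to 2.73 on deposited values without MSXH 4 and 6, Asrgl1 changes sign, and Asns is above 0 in each setting plotted, all of which keep MSXH 7 and 8.

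Asrgl1, the isoaspartyl peptidase and asparaginase, showed no common direction over its 4 probe sets (gene ID 66514, chromosome 19). The probe set of highest level, 1460360_at, had a mean level of 7.42 and ran from -13.4 through a median of -2.20 to 18.5 millionths in HFD and from -18.8 through -4.66 to 23.4 in MSXH. The ranges overlapped nearly in full. Its group difference was -1.07 millionths against SDs of 10.2 (HFD, n = 10) and 13.6 (MSXH, n = 10), a standardized difference of -0.0887, with the MSXH mouse higher in 46 of the 100 pairs. By its size Asrgl1 ranked 15955 of 18193 genes. Without MSXH 4 and 6 the standardized difference was -0.277.

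The other Asrgl1 probe sets had standardized differences above 0. Probe set 1424396_a_at (mean level 7.26) stood at 0.0716, with the MSXH mouse higher in 51 of the 100 pairs. Probe set 1424395_at (mean level 6.78) differed by 14.0 millionths against SDs of 21.7 and 26.9, or 0.572, in 63 of the 100 pairs. Probe set 1443960_at (mean level 6.44) differed by 5.94 millionths against SDs of 4.60 and 6.64, or 1.04, in 77 of the 100 pairs, and its ranges, -9.12 to 4.11 millionths in HFD and -6.16 to 13.9 in MSXH, still overlapped. These too come from the contrast the members were chosen from and carry no test.

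The 4 Asrgl1 probe sets did not vary together within a diet group, apart from 1 relation. Over the 10 MSXH mice, 1460360_at and 1424396_a_at had a Pearson r of 0.818 (permutation p = 0.00383, adjusted p = 0.0179 over 14 relations; Spearman rho 0.867, adjusted p = 0.0148). Over the 10 HFD mice the same relation had r = 0.192 (adjusted p = 0.921, permutation test). The other 10 relations between Asrgl1 probe sets had adjusted p-values from 0.546 to 0.921 in the same permutation tests.

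**Figure D3:**
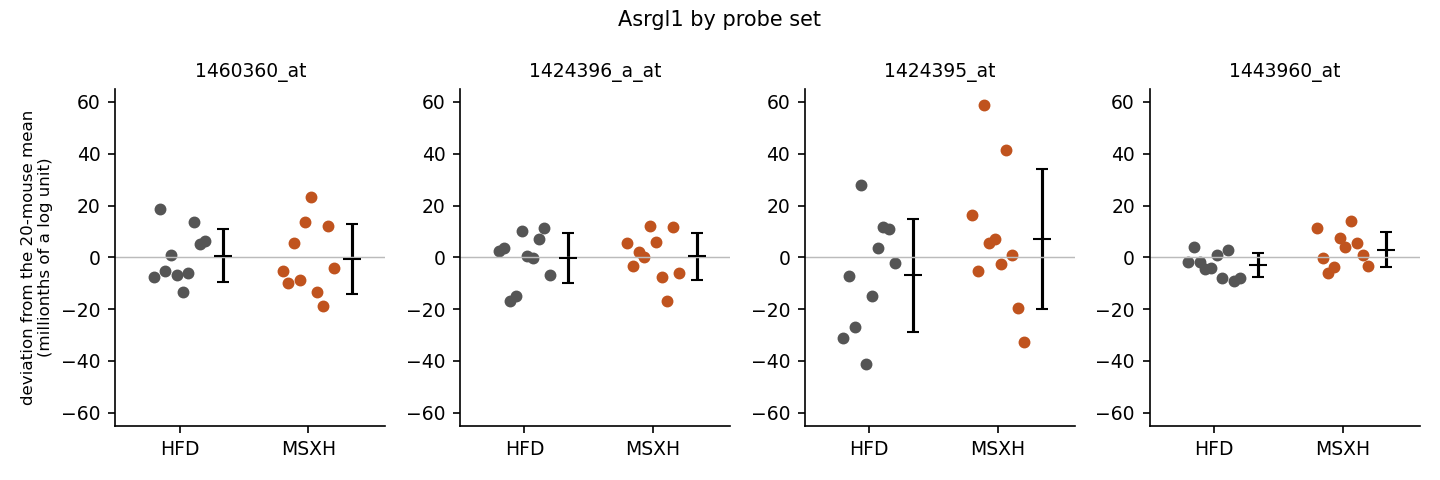
Deviation from the 20-mouse mean (vertical axis, millionths of a log unit) of the 4 Asrgl1 probe sets in each HFD and MSXH mouse, with the group mean and SD. The groups overlap in every panel, and the standardized difference goes from -0.0887 in the probe set of highest level to 1.04 in that of lowest level.

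On the deposited scale Asns, the synthetase, had a larger SD between mice than the asparaginases, in both of its probe sets. Both lie below the median of every array (6.644 to 6.646), and SDs of different probe sets need not compare as amounts of RNA. For 1451095_at (gene ID 27053, chromosome 6; mean level 6.47) the SD over the 20 mice was larger than in 98.7% of all probe sets, and for 1433966_x_at (mean level 5.72) larger than in 99.3%. The figure was 90.5% for Aspg and ran from 26.5% to 71.2% over the Asrgl1 probe sets. By SD within groups Asns ranked 282 of 18193 genes.

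In the HFD mice, Asns 1451095_at ran from -2.61 through a median of -1.24 to 3.61 thousandths, the highest being HFD 3. In the MSXH mice it ran from -4.10 through -0.307 to 8.23 thousandths. MSXH 7, at 8.23, and MSXH 8, at 7.58, stood above every other mouse, while MSXH 2, at -4.10, and MSXH 9, at -3.67, were the lowest of all. The HFD mean was -0.624 ± 2.01 (SD, n = 10) and the MSXH mean 0.624 ± 4.19 (SD, n = 10), a difference of 1.25 thousandths.

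The diets thus overlapped for Asns, whose standardized difference was 0.380, with the MSXH mouse higher in 57 of the 100 pairs. The second probe set gave 0.365 and 52 of the 100 pairs, and it ranked the same mice highest, MSXH 7 at 23.4 and MSXH 8 at 20.1 thousandths. Without both, the other 8 MSXH mice averaged -1.20 ± 1.89 thousandths (SD, n = 8) in 1451095_at, below the HFD mean of -0.624. The standardized difference turned to -0.292, and to -0.283 in the second probe set. Without MSXH 7 alone it was 0.146, and without MSXH 8 alone 0.1655. These 2 mice were picked after their values were seen, and dropping the highest mice of 1 group lowers its mean by construction. The lowest mice, MSXH 2 and MSXH 9, were kept. The omission thus does not show what the direction rests on, and the medians of all mice were -0.307 in MSXH and -1.24 in HFD. With MSXH 7 and 8 kept, the range over the deposited, quantile-normalized and centred values, with and without MSXH 4 and 6, was 0.286 to 0.380.

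Within diet groups, which were not used to choose the members, the 2 Asns probe sets varied together. Pearson r was 0.953 over the 10 HFD mice (permutation p = 0.00026, adjusted p = 0.00182; Spearman rho 0.842, adjusted p = 0.0176) and 0.969 over the 10 MSXH mice (permutation p = 9e-05, adjusted p = 0.00126; rho 0.903, adjusted p = 0.0112). The suffix of 1433966_x_at marks a probe set with probes that also match other transcripts.

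MSXH 7 and MSXH 8, the mice of highest Asns, also stood apart in markers of the zones of the liver lobule. Pericentral hepatocytes, those around the central vein, are marked by genes such as Glul and Cyp2e1, and periportal ones by genes such as Hal and Ass1. The mean level of the pericentral list (8 of 8 markers measured, each scaled to its own SD) was -1.59 and -1.31 SD units in these 2 mice against -0.683 to 0.920 in the other 18. That of the periportal list (6 of 8 markers measured) was 1.32 and 0.923 against -1.11 to 0.524, and that of the hepatocyte list (10 of 10) 0.570 and 0.733 against -0.857 to 0.553. HFD 3, highest for Asns in its group, had the lowest pericentral level of the other 18 mice, -0.683, but its periportal level, -0.418, and its hepatocyte level, -0.0825, were not high. The part of zonation in the Asns levels was not tested.

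**Figure D4:**
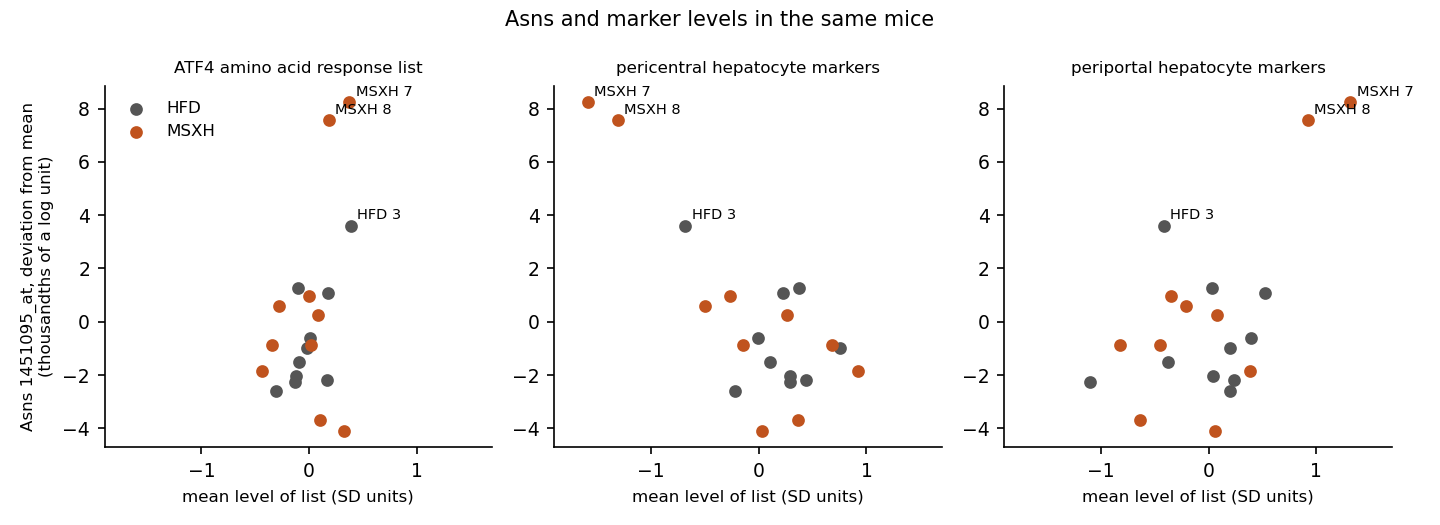
Asns level (vertical axis, deviation in thousandths of a log unit) against the mean level of the ATF4 response list and of the pericentral and periportal marker lists (horizontal axes, SD units) in 10 HFD and 10 MSXH mice. MSXH 7 and MSXH 8 lie at 8.23 and 7.58 for Asns, outside the other mice for both zonal lists and inside them for the ATF4 list.

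The members did not vary together within a diet group at the adjusted threshold. Of 6 relations (3 pairs of members in 2 groups), the strongest was Aspg with Asns over the 10 MSXH mice, with Pearson r = 0.695 (permutation p = 0.0283, adjusted p = 0.170) but Spearman rho = 0.358 (permutation p = 0.313, adjusted p = 0.737). It rests on MSXH 7 and MSXH 8, which are the highest for both genes: without them r was -0.176. Without MSXH 4 and 6 instead, r was 0.782 (permutation adjusted p = 0.178) and rho 0.405 (permutation adjusted p = 0.552). There r was 0.889 after quantile normalization (permutation adjusted p = 0.0604). It was 0.760 after median centring (permutation adjusted p = 0.0555), which correlates genes by construction. The other 5 relations had r from -0.518 to -0.0297, with permutation p from 0.126 to 0.937.

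The relation of each member to the ATF4 list was set beside this, with the mean level of its 38 measured genes. Beside response genes the list holds Atf4 itself and the upstream kinase genes Eif2ak1, Eif2ak2, Eif2ak3 and Eif2ak4, so its mean is not a pure reading of ATF4 output. Asns in the HFD mice gave r = 0.711 (permutation p = 0.0201, adjusted p = 0.120 over 6 relations; rho 0.685, permutation p = 0.0342, adjusted p = 0.130), and r = 0.645 without the 2 mice farthest from the median, so it did not pass the threshold. In the MSXH mice it was r = 0.354 (permutation p = 0.317, adjusted p = 0.475; rho 0.212, adjusted p = 0.673), and -0.406 without MSXH 7 and MSXH 8. Asrgl1 in the MSXH mice gave r = -0.621 (permutation p = 0.0573, adjusted p = 0.172; rho -0.661, adjusted p = 0.130) and r = -0.283 without the 2 farthest mice. With arrays centred on the median deviation of their probe sets, its rho was -0.830 (permutation adjusted p = 0.0305), past the threshold, and its r -0.674 (permutation adjusted p = 0.106), not past it. The other 3 relations had r from -0.370 to 0.298 and permutation p from 0.290 to 0.725.

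Single genes of that list differed in their likeness to Asns, measured by Spearman rho over the 20 mice after subtracting group means. Highest were Eif4ebp1, an inhibitor of cap-dependent translation, at 0.752, the transcription factor Atf5 at 0.668, glycyl-tRNA synthetase Gars at 0.594 and the stress gene Nupr1 at 0.580. Atf4 itself was at -0.208, Chac1, a glutathione-degrading ATF4 target, at 0.141, and the pseudokinase gene Trib3 at 0.0421. Lowest were mitochondrial serine hydroxymethyltransferase Shmt2 at -0.411 and Ddit3, which encodes CHOP, at -0.398. In all, 7 of 38 list genes (18.4%) were above 0.4, against 1658 of 18190 genes (9.11%), and the medians were 0.0504 and 0.00451. These values share arrays and are a description only.

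Over all genes, those most like Aspg by the same measure were Psen2, a presenilin of the gamma-secretase complex, at 0.889, Plpbp, a pyridoxal phosphate binding protein, at 0.860, Ethe1, the mitochondrial persulfide dioxygenase, at 0.792, Clu, clusterin, at 0.787, and the choline transporter Slc44a1 at 0.777. Of all genes, 90% lay between -0.382 and 0.450. After quantile normalization Psen2 stood at 0.408, Plpbp at 0.560, Ethe1 at 0.427 and Slc44a1 at 0.609, and Clu had no value because its values were tied.

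Those most like Asrgl1 were Akip1 at 0.786, 2700046G09Rik at 0.779, 1810006J02Rik at 0.761, the sodium-proton exchanger Slc9a4 at 0.752 and the T-box factor Tbr1 at 0.744. Quantile normalization left 2700046G09Rik at 0.899 and 1810006J02Rik at 0.0607. Those most like Asns were the tubulin gene Tuba8 at 0.884, Appbp2os at 0.823, Ccdc82 at 0.815, Lzts3 at 0.806 and the histone chaperone Nap1l1 at 0.802. Tuba8 kept 0.767 after quantile normalization, while Ccdc82 went to -0.143. The 5 genes most like each member were picked as the highest of 18190 genes over 20 mice. Their values are therefore high by selection, and none was tested. Some of these genes vary very little, with an SD within groups of 7.13e-07 for Clu and 4.53e-06 for Tbr1.

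None of the other genes around asparagine that were measured passed the adjusted threshold. Of 107 genes in 4 lists, 101 were measured by a probe set with 1 symbol, 0 passed limma's adjusted p under 0.05, and at an unadjusted p under 0.05 there were 7 higher and 6 lower in MSXH, beside shares of 6.58% and 4.31% over all genes. In sign, 53 were higher and 48 lower (52.5% higher, against 54.7% of all genes), with a median standardized difference of 0.0715 against 0.0669 over all genes.

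**Figure D5:**
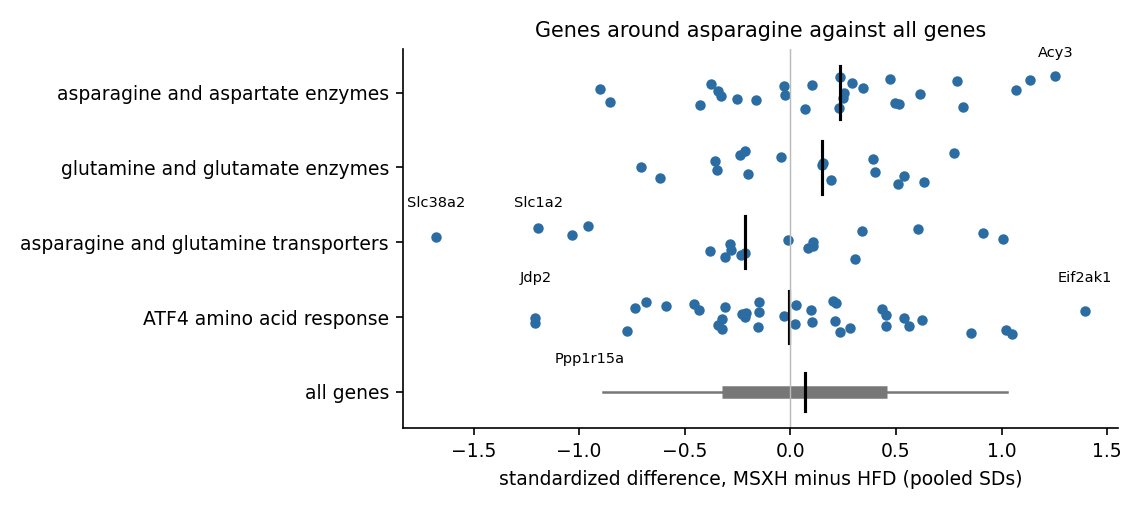
Standardized difference (horizontal axis, MSXH minus HFD in pooled SDs) of each gene of the 4 lists, points being genes and black lines medians; the grey bar for all 18193 genes covers the 25th to 75th percentile and the thin line the 5th to 95th. The list medians lie from -0.213 for the transporters to 0.235 for the asparagine and aspartate enzymes, and Slc38a2 is farthest from 0.

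Among the other enzymes that handle asparagine or aspartate, 27 of 29 were measured, 17 with a higher and 10 with a lower mean in MSXH and a median of 0.235. The 3 of smallest p were Acy3, an aminoacylase that takes the acetyl group off modified amino acids, at 1.25 (limma adjusted p = 0.315), Adssl1, the muscle form of adenylosuccinate synthase, at 1.14 (limma adjusted p = 0.357), and Asphd2 at 1.07 (limma adjusted p = 0.406). The other Asphd2 probe set stood at -0.241, and the mean of both at 0.442. Adssl1 was highest on MSXH 4, an array with muscle transcripts, and its standardized difference was 1.53 without MSXH 4 and 1.43 without MSXH 4 and 6. The genes nearest to the members in role had smaller values: 0.788 for Aga, the lysosomal enzyme that frees asparagine from glycoproteins, 0.494 for the omega-amidase Nit2, 0.0715 for the threonine aspartase Tasp1, and -0.251 for asparaginyl-tRNA synthetase Nars, with limma adjusted p-values of 0.587, 0.716, 0.972 and 0.873.

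Of the enzymes of glutamine and glutamate, the nitrogen donor of Asns and its product, 17 of 19 were measured, 9 higher and 8 lower, with a median of 0.151 and 0 at an unadjusted p under 0.05. Aldh4a1, which makes glutamate in proline breakdown, stood at 0.773 (limma adjusted p = 0.549). Glutamine synthetase Glul stood at -0.707 (limma adjusted p = 0.585), and at -0.241 without MSXH 7 and 8. The other Glul probe set, not counted above, stood at -0.941 (limma unadjusted p = 0.0451), and the mean of both at -0.903. Ppat, the first enzyme of purine synthesis, stood at 0.631 (limma adjusted p = 0.625), and at 0.331 as the mean of its 3 probe sets.

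Of the transporters of asparagine and glutamine, 19 of 19 were measured, 8 higher and 11 lower (42.1% higher, against 54.7% of all genes), with a median of -0.213, and 0 passed the adjusted threshold. At an unadjusted p under 0.05, 1 was higher and 4 lower, where all genes had 6.58% and 4.31%. Slc38a2, a sodium-coupled carrier of small neutral amino acids, ran from -1.97 through a median of 2.02 to 7.69 thousandths in HFD and from -6.36 through -1.71 to 0.618 in MSXH. Its standardized difference was -1.68 (limma adjusted p = 0.210), with the MSXH mouse higher in 11 of the 100 pairs, and its other probe sets stood at -1.45 and -0.120. The glutamate carrier Slc1a2 stood at -1.19 (limma adjusted p = 0.334), or -0.743 as the mean of its 5 probe sets, and Slc38a3, the liver's glutamine and asparagine carrier, at 1.01 (limma adjusted p = 0.411).

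The ATF4 list split evenly, with 19 of 38 measured genes higher and 19 lower and a median of -0.00471. Its genes of smallest p were the heme-regulated kinase gene Eif2ak1 at 1.40 (limma adjusted p = 0.323), Jdp2, a partner of ATF factors, at -1.21 (limma adjusted p = 0.327), and Ppp1r15a, which ends the response by dephosphorylating eIF2alpha, at -1.21 (limma adjusted p = 0.328). The other Jdp2 probe set stood at -0.0852. The other Eif2ak1 probe sets stood at 1.13, 0.602, -0.468 and -0.590. The signs of Acy3, Asphd2, Aldh4a1, Ppat, Slc38a3, Eif2ak1 and Tasp1 turned under both quantile normalization and median centring, as Aspg did. Those of Adssl1, Nit2, Slc38a2, Slc1a2, Glul and Jdp2 turned under neither, with or without MSXH 4 and 6. Centring moves all genes of an array alike, by -1694 millionths in MSXH 4, -1304 in MSXH 6 and -152 to 320 elsewhere. Over all mice this lowers MSXH against HFD, so it turns small positive differences and no negative ones. MSXH mean deviations were 1.86 (Tasp1) to 81.7 millionths (Acy3) in the turned genes listed here, against 241 (Nit2) and 1393 (Adssl1). The centring part of this contrast thus restates sign and size and is no test of these genes.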

How the data were processed

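Per the labels' protocols, biotin-labelled RNA from the livers of 20 mice was put on Affymetrix 3′ arrays, with each mouse on its own array. The deposited values lie in the range of log2 intensities and were listed under that unit, but no source states their base, so they are called a log scale. How background correction, normalization and summarization were done is not given in the sources used here. Precision is limited by how many arrays there are.

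Of 45101 probe sets, 64 are controls, 34945 have exactly 1 symbol in the platform's gene table, 932 have several and 9160 have none. For the 9010 genes with several probe sets, that of the highest mean was used, which gave 18193 genes with no filter on level. Values were used as deposited. Array medians, median deviations, ranks and the shares of probe sets with a smaller SD were taken over the 34945 probe sets with 1 symbol. Quantile normalization ran on all 45101. The members and the lists were chosen with earlier results of these data known.

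The 2 groups come from the sample titles. Genes were fitted with limma 3.58.1 in R 4.3.3 by lmFit and a trended eBayes, with 18 residual and 0.704 prior degrees of freedom. Its p-values are two-sided and were adjusted over all genes by Benjamini-Hochberg, with a threshold of 0.05. The script was tested on simulated data. The labels call the samples biological replicates, and p-values measure the spread between these mice. No p-value between diets is given for a member, but the fits and counts over all 18193 genes include the members. Correlations within groups have two-sided permutation p-values (100000 permutations), adjusted over 6, 6 and 14 relations, and were computed with Python 3.11.15, numpy 2.4.6 and scipy 1.17.1. The titles do not say whether replicate numbers pair mice, and the main fits used no pairing. Deviations of mice with the same number correlated at -0.265 to 0.165, and 2 of 10 numbers were above 0.1. This does not exclude a weak pairing.

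Genes named are all member probe sets, the 3 genes of smallest p in each list when none passed, the 5 genes most like each member, and muscle and liver check genes. Aga, Nit2, Tasp1 and Nars were named for their role, and single ATF4 list genes and the mice named were picked after their values were seen. Marker lists cover 9 cell types or zones. Alternatives were quantile normalization, median centring, leaving out MSXH 4 and 6 (also with either scaling), a replicate block, leaving out each array, other probe set rules, a level filter, no trend and a rank sum test. Promoter sequences come from RefSeq (GRCm38.p6).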

Additional observations from a re-analysis of the deposited data

Results flagged for a closer look

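Of 46 groups of 10 mice examined, over the probe sets of the members and the named genes of the lists, 2 held a mouse at the top or bottom whose gap to its nearest neighbour was past Dixon's critical value for the group's range. Chance gives about 1 in 20 such groups. Adssl1 1449383_at in MSXH 4 had a gap of 0.598 of the range, at 10100 millionths of a log unit above its mean, on an array with muscle transcripts. Aga 1434665_at in HFD 5 had a gap of 0.595 of the range, at 7.26 millionths. No probe set of Aspg, Asrgl1 or Asns had such a mouse in either group.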

How the results depend on the processing

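Aspg kept its direction when each array in turn was left out (2.52 to 2.86 pooled SDs), and turned to -0.475 under quantile normalization and -0.164 under median centring; without MSXH 4 and 6 these gave 0.0755 and 1.22. Asns was above 0 in every other setting run, from 0.146 to 0.562 with each array left out, but turned to -0.292 without MSXH 7 and 8, the mice of highest Asns. Asrgl1, at -0.0887, was 1.44 and 0.303 without MSXH 4 and 6 under quantile normalization and median centring, 0.611 as the mean of its probe sets, 0.0716, 0.573 and 1.04 in its other probe sets, and -0.347 to 0.0835 with each array left out, turning without HFD 2 (0.0810), HFD 8 (0.0326), MSXH 7 (0.0320) or MSXH 8 (0.0835), and 0.255 without MSXH 7 and 8. The replicate block gave 3.37 for Aspg, -0.0712 for Asrgl1 and 0.348 for Asns, and 0 genes called. Of 10 mice, 1 correlated best with its own number, which shows no pairing by number but cannot exclude a weak one.

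Genes called over the array numbered 0, but 1 under median centring without MSXH 4 and 6, 1 with the mean of probe sets, 4 with the rank sum test and 0 to 3 with each array left out (3 without HFD 3). The rank sum count includes Aspg, whose groups do not overlap. Aspg was chosen from this contrast, so that count gives it no support. No gene of the 4 lists was called in any setting run.

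Under quantile normalization and median centring the differences were -0.333 and -0.203 for Acy3, -0.640 and -0.518 for Asphd2, -0.705 and -0.474 for Aldh4a1, -0.304 and -0.445 for Ppat, -0.447 and -0.277 for Slc38a3, -0.373 and -0.516 for Eif2ak1, and -0.477 and -0.502 for Tasp1; Aga was -0.513 under median centring. Without MSXH 4 and 6, quantile normalization gave -0.0178 for Asphd2, -0.424 for Aldh4a1, -0.422 for Slc38a3, 0.685 for Ppp1r15a and 0.191 for Nars, and median centring 0.215 for Ppp1r15a and 0.297 for Nars. With each array left out Nars ran from -0.427 to 0.00546 and Tasp1 from -0.172 to 0.251.

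Of the relations of member pairs, 1 passed under quantile normalization and 2 under median centring, against 0; of those with the ATF4 list, 2 and 4, against 0. Without MSXH 4 and 6, 0 of both families passed under quantile normalization, and 2 and 4 under median centring. Centring adds 1 shift to all genes of an array, which by construction correlates them. In MSXH mice, r of Asrgl1 with the list was 0.976 and 0.9998 under these scalings and 0.448 and 0.994 without MSXH 4 and 6. That of Asns was -0.00468 under quantile normalization, -0.662 there without MSXH 4 and 6, and -0.406 without the 2 farthest mice, MSXH 7 and 8. That of Aspg and Asns was -0.176 without the same 2 mice. Centring on the median deviation, leaving out MSXH 7 and 8, and the list of high-SD ATF4 genes were added after seeing the data. Except where a value above shows it, the cause of a change was not tested.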
